A study of Mus musculus with 18 samples.

Results

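The comparison is between mouse hepatocytes given 2 mM octanoate for 24 h (n = 5 arrays) and the same cells given 1 mM octanoate for 24 h (n = 4 arrays), which are 9 of the 18 arrays in the series. Arrays were assigned by the agent named in the labels. All groups used AML12, an immortalized line of mouse hepatocytes grown as a single cell type in serum-containing medium, and the labels name no genetic change in any of them. The other 9 arrays were from cells given phosphate-buffered saline (PBS, n = 5) or 5 mM octanoate (n = 4) for the same time, and they enter only to share the estimate of the spread and to place each gene along the dose. The title of the series concerns lipid carbon in the acetylation of histones, and the 4 doses address how expression follows the amount of octanoate. Whether replicates were grown as separate cultures is not in the labels, so the p-values describe the spread among these arrays alone, and that spread may be technical.

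Octanoate is a medium-chain fatty acid that enters mitochondria largely without the carnitine shuttle and is broken down there to acetyl-CoA. In liver, fatty acids also act as ligands of the nuclear receptor PPAR alpha, whose targets include genes of fatty acid oxidation, acyl-CoA thioesterases, Pdk4 and Angptl4. Hepatocytes secrete most of the carrier proteins of plasma and hold high levels of the glutathione S-transferases, aldehyde dehydrogenases and cytochromes P450 that clear reactive and foreign compounds. Proliferating cell lines also spend much of their transcription on ribosome production and DNA replication.

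RNA was measured on Illumina mouse BeadChips, slides with 6 arrays each. Tests covered the 20536 of 45281 probes that were detected at p under 0.05 on at least 4 of the 18 arrays, and these stood for 10605 named genes. An array at 2 mM had 17910 to 18341 detected probes and an array at 1 mM 17688 to 18461, and the number of arrays limits the precision. Levels below are normalized log2 intensities of the brightest probe of a gene, differences are 2 mM minus 1 mM on the log2 scale with the standard error (SE) of a limma fit, and a gene is called at an adjusted p under 0.05. Replicates 1 to 3 of 2 mM and replicates 2 to 4 of 1 mM were together on BeadChip 2, while 2 mM replicates 4 and 5 sat on BeadChip 3 with the 5 mM arrays and 1 mM replicate 1 sat on BeadChip 1 with the PBS arrays. The value given as within BeadChip 2 was fitted with a BeadChip term, and it rests on 3 arrays against 3. An adjusted p beside it is from that fit, whose spread came from all 18 arrays. Earlier results of these data set apart 1 mM replicates 1 and 4 and 2 mM replicate 5, so counts are also given without those 3 arrays.

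Hepatocyte markers were present, with 8 of 12 listed markers tested and 6 of them detected on every array, while Alb, Tat and Cps1 were among those with no tested probe. The summed linear level of the 8 markers ran from 14250 to 16200 on the 2 mM arrays and from 11570 to 12270 on the 1 mM arrays. Ttr, Serpina1a and Hnf4a were the members called, all higher at 2 mM (37.5%, against 4.26% of all genes). Ttr alone was called with BeadChip as a term, and Ttr alone without the 3 arrays. Serpina1a then had an adjusted p of 0.228 and 0.0974, and it lost the call in 2 of 9 fits that left out 1 array. Biliary and progenitor markers, of which 4 of 8 were tested and 3 were detected on every array, summed to between 5251 and 6079 at 2 mM and between 5165 and 5758 at 1 mM, with 0 called by limma and 2 lower at an unadjusted p under 0.05. Of stellate, macrophage and endothelial markers 3 of 9, 1 of 7 and 2 of 7 were tested, and none of these was detected on every array. Their summed levels were 80.99 to 98.63 at 2 mM and 68.45 to 83.15 at 1 mM for stellate markers, 21.11 to 29.06 at 2 mM and 24.57 to 28.76 at 1 mM for the macrophage marker Csf1r, and 47.50 to 57.41 at 2 mM and 44.98 to 62.45 at 1 mM for endothelial markers. The part of any of these cells in the results was not tested. In bulk RNA, fewer cells of a type and less RNA per cell cannot be told apart.

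More genes were called higher than lower at 2 mM. Of 20536 probes, 984 (4.79%) were called, 639 (3.11%) higher and 345 (1.68%) lower at 2 mM. By gene, 631 of 10605 (5.95%) were called, 452 (4.26%) higher and 179 (1.69%) lower. The filter also admits probes detected on the 5 mM arrays alone. Among probes detected on all 18 arrays, 690 were called higher and 477 lower. Differences were small: the median size among called probes was 0.44, only 10 probes rose by at least 2-fold and 0 fell by that much, against 3975 probes at an unadjusted p under 0.05. The median over all genes was 0.01. Of the 631 called genes, 531 had no overlap between the 2 mM and 1 mM arrays, against 1060 of all genes (10.0%), of which 680 (6.41%) lay above and 380 (3.58%) below at 2 mM. The 12 largest rises and 12 largest falls named below were picked among called genes without overlap. For these genes, among them Ttr, Gsta4, Pdk4, Cyp2c67, Ddc, Hmox1, Tcof1 and Cxcl2, the lack of overlap is therefore no separate support. With BeadChip as a term 373 probes were called, of which 335 were also called in the fit without it and in the same direction. Without the 3 arrays named above 358 probes were called.

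The size of a difference depended on the scale, most of all for dim genes. Over the 631 called genes the median size was 0.45, against 0.35 with an offset of 50 in place of 16 and 0.24 on the authors' processed values. Split at their median level, the 315 dimmer genes had medians of 0.51, 0.34 and 0.15 in that order, and all 315 were more than 1.5 times smaller on the authors' values. The 316 brighter genes had medians of 0.38, 0.36 and 0.31, with 55 more than 1.5 times smaller on the authors' values. Folds of dim genes below hold for the offset of 16 only.

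**Figure D1:**
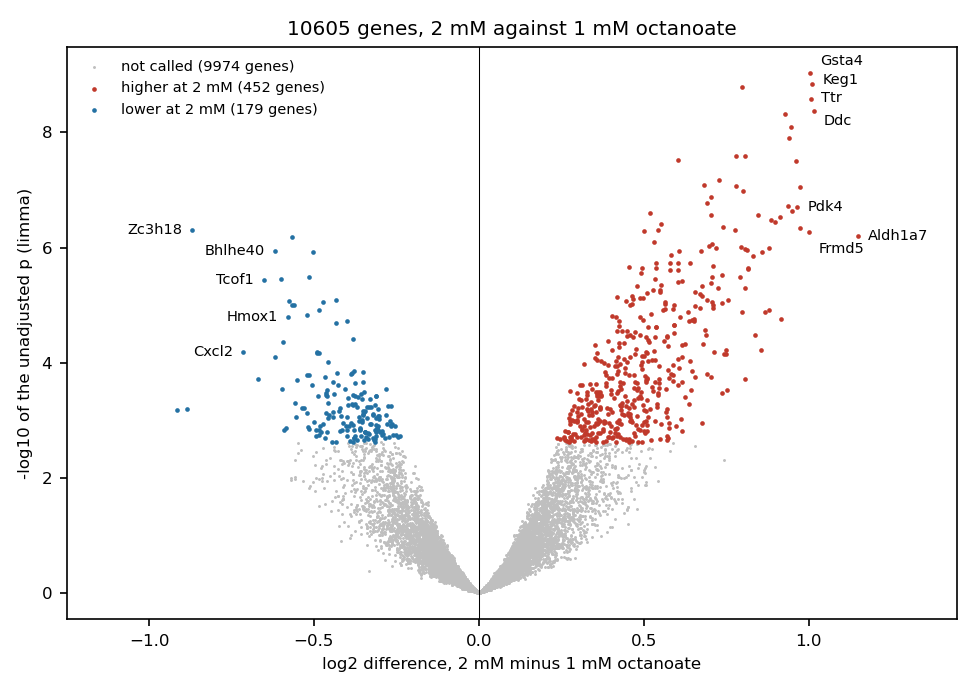
Difference between 2 mM and 1 mM octanoate for 10605 genes (x axis, log2) against minus log10 of the unadjusted limma p (y axis). Red points are the 452 genes called higher at 2 mM and blue points the 179 called lower; Gsta4, Keg1, Ttr and Ddc sit near a difference of 1, and the red points reach further from 0 than the blue ones do.

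Many liver secretory genes rose. Of 29 listed genes for plasma carriers and apolipoproteins, 16 were measured. Of these 16, 10 rose (62.5%, against 4.26% of all genes) and 0 fell, with a median difference of 0.47. The 1 member below 0, at -0.41, was lower at an unadjusted p under 0.05. When each array was left out in turn, 9 to 10 members were called higher and 0 to 1 lower. The risers were Ttr, Rbp4, Hpx, Ambp, Fcgrt, Apoc1, Apoc2, Apoc4, Apoe and Serpina1a. With BeadChip as a term 7 of the 16 were called, and 6 were called without the 3 arrays, as many as among the 16 PPAR alpha targets described below. Serpina1a was not called in either of those fits.

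Ttr encodes transthyretin, the plasma carrier of thyroxine and of retinol-binding protein. Its levels were 10.90, 10.78, 11.05, 11.29 and 11.13 on the 2 mM arrays and 9.99, 9.97, 9.99 and 10.15 on the 1 mM arrays. The lowest 2 mM array lay well above the highest 1 mM array, and the difference of 1.01 ± 0.10 (SE) was a 2.01-fold rise (adjusted p = 9.16e-06; 0.88 within BeadChip 2). Along the doses the mean level was 8.32, 10.02, 11.03 and 12.54 over PBS, 1, 2 and 5 mM.

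Apoc4, a minor apolipoprotein of very low density lipoprotein encoded beside Apoe, Apoc1 and Apoc2, had levels of 8.06, 7.79, 7.97, 7.86 and 7.98 at 2 mM against 7.20, 7.15, 6.98 and 7.27 at 1 mM. All arrays of the larger dose were above all arrays of the smaller one, with a difference of 0.78 ± 0.09 (adjusted p = 8.62e-05; 0.80 within BeadChip 2). Fcgrt, the receptor that returns albumin and immunoglobulin G from endosomes to the circulation, rose by 0.70 ± 0.09 (adjusted p = 0.000111; 0.71 within BeadChip 2), with 8.70 to 8.98 at 2 mM and 7.96 to 8.29 at 1 mM. Hpx, the heme carrier hemopexin, rose by 0.37 ± 0.09 (adjusted p = 0.0227; 0.40 within BeadChip 2, adjusted p = 0.0839). The Hpx call was lost without 1 mM replicate 2 or without 1 mM replicate 3, with an adjusted p of up to 0.0725, and without the 3 arrays (0.0575).

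Several detoxification enzymes rose. Of 27 measured genes of glutathione and aldehyde metabolism, 11 rose (40.7%, against 4.26% of all genes) and 0 fell, with a median of 0.36. The other 16 did not pass, and 3 of these lay below 0. The risers were the glutathione S-transferases Gsta4, Gstm1, Gstm2, Gstm5, Gstm7, Gstt1, Gstt3 and Gstk1, the microsomal enzyme Mgst2, and the aldehyde dehydrogenases Aldh1a1 and Aldh1a7. Of the 27, 8 were called with BeadChip as a term, and 7 were called without the 3 arrays. The Gstm genes are near copies of each other, as are Aldh1a1 and Aldh1a7, and cross-hybridization between their probes was not examined.

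Gsta4 conjugates 4-hydroxynonenal, an aldehyde that lipid peroxidation yields. Levels of Gsta4 were 9.19, 9.19, 9.15, 9.17 and 9.04 at 2 mM and 8.20, 8.03, 8.16 and 8.19 at 1 mM. The arrays of each dose lay close together and the doses did not overlap, with a 2.01-fold rise of 1.01 ± 0.09 (adjusted p = 6.36e-06; 1.05 within BeadChip 2).

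Aldh1a1 oxidizes retinal and other aldehydes. It had levels of 10.84, 10.65, 10.82, 10.76 and 10.78 at 2 mM and 9.84, 9.91, 10.03 and 10.10 at 1 mM, again with no overlap, and rose by 0.80 ± 0.08 (adjusted p = 6.71e-06; 0.75 within BeadChip 2). Its neighbour in sequence Aldh1a7 rose by 1.15 ± 0.16 (adjusted p = 0.000277; 1.15 within BeadChip 2), which was 0.71 with an offset of 50 and 0.25 on the authors' processed values. Aldh1a7 was dim, with levels of 6.09 to 6.68 at 2 mM and of 4.69 to 5.78 at 1 mM, where it was detected on 3 of 4 arrays.

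NRF2 is the transcription factor that electrophiles and oxidants activate. Of 22 measured NRF2 targets 2 rose (9.09%, against 4.26% of all genes) and 1 fell (4.55%, against 1.69%), with a median of 0.05. Ephx1, the microsomal epoxide hydrolase, rose by 0.52 ± 0.07 (adjusted p = 0.000163), with 11.75 to 11.93 at 2 mM against 11.28 to 11.43 at 1 mM. Srxn1, the other riser, gave 0.33 ± 0.09 (adjusted p = 0.0471), and its other probes gave 0.17 and 0.15. The Srxn1 call was lost in 8 of 9 fits that left out 1 array (adjusted p up to 0.103). It was also lost with BeadChip as a term (0.101) and without the 3 arrays (0.153). Hmox1, the heme oxygenase induced by oxidants, fell by 0.58, with an SE of 0.10 (adjusted p = 0.00201; -0.54 within BeadChip 2). Its levels were 6.93, 7.12, 7.27, 7.09 and 7.05 at 2 mM and 7.74, 7.48, 7.62 and 7.85 at 1 mM, so that every 2 mM array was below every 1 mM array. The Hmox1 difference was -0.45 without the 3 arrays and was then not called (adjusted p = 0.0911), which left 1 rise and 0 falls in the list, and it was -0.28 on the authors' processed values.

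Some targets of PPAR alpha rose. Of 16 measured targets, 8 rose and 0 fell, 8 did not pass, 1 of them below 0, and the median was 0.30; 5 were called with BeadChip as a term and 6 without the 3 arrays. The risers were Pdk4, Angptl4, Cyp4a12a, Cyp4a12b, Acot1, Acot4, Slc25a20 and Fitm2. Cross-hybridization between the probes of Cyp4a12a and Cyp4a12b was not examined, and 2 of the 16 targets were detected on no 1 mM array. Of 21 measured genes of mitochondrial beta-oxidation and the carnitine shuttle, 2 rose (Slc25a20 and Etfdh, 9.52%) and 0 fell, with a median of 0.10. Of 16 peroxisomal genes 1 rose (Acot4, 6.25%), with a median of 0.15. Both shares stand against 4.26% of all genes called higher. Counts were not tested between these lists, and Acot4 and Slc25a20 stand in more than 1 of them.

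Pdk4 encodes the kinase that switches off pyruvate dehydrogenase and so spares glucose carbon. Its levels were 6.21, 6.14, 6.49, 6.37 and 6.41 at 2 mM and 5.35, 5.37, 5.42 and 5.29 at 1 mM. The doses did not overlap, and the gene rose 1.95-fold, by 0.97 ± 0.12 (adjusted p = 0.000147; 0.92 within BeadChip 2). The rise of Pdk4 was 0.61 with an offset of 50 and 0.21 on the authors' processed values. Mean levels of Pdk4 were 5.14, 5.36, 6.32 and 8.38 over PBS, 1, 2 and 5 mM, so its steps were 0.21 over PBS to 1 mM and 0.97 over 1 to 2 mM; these steps share the 1 mM arrays, and the test of their difference did not pass (adjusted p = 0.199).

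Acot1, a cytosolic thioesterase that frees fatty acids from acyl-CoA, had levels of 13.03, 13.10, 13.08, 12.93 and 13.06 at 2 mM against 12.40, 12.61, 12.62 and 12.52 at 1 mM. The rise of 0.50 ± 0.07 had no overlap between the doses (adjusted p = 0.000236; 0.48 within BeadChip 2). Angptl4, a secreted inhibitor of lipoprotein lipase, rose by 0.50 ± 0.08 (adjusted p = 0.00131; 0.47 within BeadChip 2), with 10.48 to 10.62 at 2 mM and 9.96 to 10.16 at 1 mM. Etfdh, which passes electrons of beta-oxidation to ubiquinone, rose by 0.47 ± 0.09 (adjusted p = 0.00342), while its other probes gave 0.10 and 0.22. Slc25a20, the carnitine-acylcarnitine carrier, rose by 0.34 ± 0.09 (adjusted p = 0.0404), and this call was lost in 7 of 9 fits that each left out 1 array (adjusted p up to 0.117) and with BeadChip as a term (0.168).

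Ketone body genes had calls in both directions. Of 6 measured genes Bdh1 and Bdh2 rose (33.3%, against 4.26% of all genes) and Aacs fell (16.7%, against 1.69%). With BeadChip as a term Bdh1 alone was called. Bdh2, a short-chain dehydrogenase of the cytosol, rose by 0.43 ± 0.08 (adjusted p = 0.0025; 0.37 within BeadChip 2, adjusted p = 0.0533). Bdh1, which interconverts acetoacetate and beta-hydroxybutyrate in mitochondria, gave 0.50 ± 0.14 (adjusted p = 0.0496), and Aacs, which turns acetoacetate to acetoacetyl-CoA for lipid synthesis, gave -0.33 ± 0.09 (adjusted p = 0.0335). Bdh1 and Aacs each lost the call in 6 of 9 fits that left out 1 array, with adjusted p up to 0.134 for Bdh1 and 0.102 for Aacs.

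Among cytochromes P450, glucuronosyltransferases and sulfotransferases, 5 of 14 measured genes rose (Cyp2c67, Cyp2d22, Cyp27a1, Ugt2b34 and Ugt2b36) and Cyp2s1 fell, with a median of 0.33. The shares were 35.7% called higher, against 4.26% of all genes, and 7.14% called lower, against 1.69%. With BeadChip as a term 3 were higher and 1 was lower, and the same numbers were called without the 3 arrays. Cyp2c67, of a family that oxidizes fatty acids and drugs, had levels of 7.27, 6.75, 7.44, 7.08 and 7.41 at 2 mM and 6.52, 6.17, 6.20 and 5.99 at 1 mM, with no overlap and a rise of 0.97 ± 0.13 (adjusted p = 0.000229; 1.04 within BeadChip 2). Cyp2d22 rose by 0.58 ± 0.09 (adjusted p = 0.000601), although a further tested probe of that gene gave -0.07. No 1 mM array detected Ugt2b34, whose rise was at least 1.20-fold, a bound that sets its mean at 2 mM against the lowest detected level of each 1 mM array, or its own level there where that was higher. Cyp2s1, an extrahepatic P450, fell by 0.60, with an SE of 0.09 (adjusted p = 0.000769), with 7.75 to 7.96 at 2 mM and 8.31 to 8.64 at 1 mM.

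**Figure D2:**
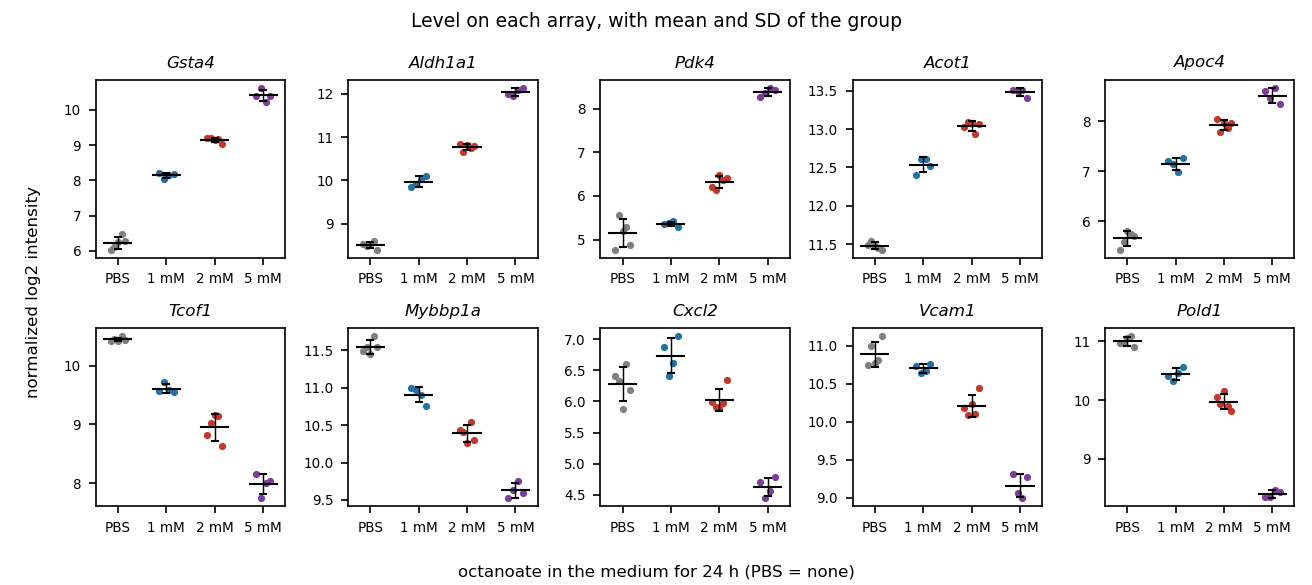
Normalized log2 intensity (y axis, a scale of its own in each panel) of 10 genes on each array, by octanoate in the medium (x axis, PBS, 1, 2 and 5 mM). Points are arrays, long bars are group means and short bars the SD; the 2 mM points of Gsta4, Aldh1a1, Pdk4, Acot1 and Apoc4 lie above the 1 mM points, and those of Tcof1, Mybbp1a, Cxcl2, Vcam1 and Pold1 lie below them.

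Several of the largest rises lay outside those lists. Ddc, the aromatic amino acid decarboxylase that makes dopamine and serotonin, had levels of 6.75, 6.71, 6.80, 6.92 and 6.69 at 2 mM against 5.51, 5.88, 5.84 and 5.80 at 1 mM. Every 2 mM array was higher than every 1 mM array, and the rise was 1.02 ± 0.10, or 2.02-fold (adjusted p = 1.21e-05; 0.91 within BeadChip 2), with 0.80 from its other probe. The rise of Ddc was 0.70 with an offset of 50 and 0.28 on the authors' processed values. Keg1, an acyl transferase related to glycine N-acyltransferase, rose by 1.01 ± 0.09 (adjusted p = 6.71e-06; 1.07 within BeadChip 2). Levels of Keg1 ran from 6.47 to 6.93 at 2 mM and from 5.48 to 5.81 at 1 mM. Its mean was 6.66 at 2 mM and 6.40 at 5 mM, so the highest group mean of Keg1 was at 2 mM, whereas Ddc went on to 7.50 at 5 mM.

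Fbxo2, an F-box protein that recognizes glycoproteins for ubiquitination, rose by 0.97 ± 0.12 (adjusted p = 8.62e-05; 1.04 within BeadChip 2), with 9.37 to 9.57 at 2 mM and 8.36 to 8.75 at 1 mM. Pdzk1, a scaffold that holds the high density lipoprotein receptor at the hepatocyte surface, rose by 0.95 ± 0.10 (adjusted p = 1.75e-05; 0.96 within BeadChip 2), with 6.19 to 6.40 at 2 mM and 5.02 to 5.62 at 1 mM. Its other probes disagreed, at 1.13 and 0.10 (adjusted p = 0.642 for the second). Zcchc18 rose by 0.96 ± 0.11 and Fxyd6, a regulator of the sodium pump, by 0.95 ± 0.12. Frmd5 had 1.00 ± 0.14 (adjusted p = 0.000237; 0.78 within BeadChip 2), was detected on 2 of 4 arrays at 1 mM, and had another tested probe at 0.08.

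Promoter sequences are shown for Ddc, among the largest risers, and Cxcl2, among the largest fallers, because each held a motif that was searched for in all promoters. The sequences are from RefSeq on the mouse build GRCm38.p6, and 8639 of the 10605 genes had an entry. In each window of 250 bases before the start, both strands were searched for AAAGGTCA, a nuclear receptor element, the NF-kB element (10 letters, with any base at the fifth), CACGTG, an E-box, and TATAAA. Capitals mark the match. For Ddc, 1 of 2 promoters held it, 73 bases before the start, at chr11:11898150-11898277 on the minus strand, and read on the other strand it overlaps a TATAAA. For Cxcl2 the match is 97 bases before the start, at chr5:90903742-90903871 on the plus strand.
Ddc: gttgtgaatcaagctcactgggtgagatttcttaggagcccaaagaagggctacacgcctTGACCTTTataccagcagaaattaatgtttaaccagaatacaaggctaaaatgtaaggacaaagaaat
Cxcl2: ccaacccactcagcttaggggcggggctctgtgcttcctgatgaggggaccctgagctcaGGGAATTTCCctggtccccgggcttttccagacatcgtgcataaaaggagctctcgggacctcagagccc

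The letters AAAGGTCA were in 2.28% of 351 called risers with an entry, 0.676% of 148 called fallers and 1.13% of all 8639 genes. The NF-kB element was in 0.285% of risers, 0.676% of fallers and 0.451% of all. CACGTG was in 6.84% of risers, 12.2% of fallers and 9.98% of all, and TATAAA in 12.3% of risers, 6.08% of fallers and 8.31% of all. These shares are descriptions of letters in a window and no test was run on them.

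Some genes of ribosome production fell. Of 39 measured genes for ribosome biogenesis and the nucleolus, 10 fell (25.6%, against 1.69% of all genes) and 0 rose, with a median difference of -0.26. They were Tcof1, Ncl, Nop14, Nhp2, Gar1, Rrp9, Rrp12, Noc2l, Gnl3 and Mybbp1a. With BeadChip as a term 3 were called, at a median of -0.24, and 2 were called without the 3 arrays, at a median of -0.24. When each array was left out in turn, 6 to 9 members were called lower. Cytosolic ribosomal proteins, the products assembled in that process, gave 1 fall among 38 measured genes (2.63%) and 0 rises, with a median of -0.02. The fall, Rpl14, was not called with BeadChip as a term.

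Tcof1 encodes treacle, which supports transcription of ribosomal RNA genes. Its levels were 8.82, 9.02, 9.16, 9.14 and 8.62 at 2 mM and 9.57, 9.71, 9.58 and 9.55 at 1 mM. All arrays at 2 mM were below all at 1 mM, with a fall of -0.65 ± 0.10 to 0.636 times the 1 mM level (adjusted p = 0.000781; -0.62 within BeadChip 2), and another probe of Tcof1 gave -0.26. Mybbp1a, a nucleolar protein of ribosomal RNA processing, had 10.43, 10.41, 10.27, 10.55 and 10.31 at 2 mM against 10.99, 10.97, 10.91 and 10.76 at 1 mM. Those groups did not overlap either, with -0.52 ± 0.08 (adjusted p = 0.000718; -0.51 within BeadChip 2) and -0.43 to -0.52 over its 4 probes. Gar1, a protein of the particles that pseudouridylate ribosomal RNA, fell by 0.40, with an SE of 0.07 (adjusted p = 0.00218; -0.33 within BeadChip 2, adjusted p = 0.0542; adjusted p = 0.054 without the 3 arrays), with -0.18 from its other probe.

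A few chemokines and other NF-kB targets fell. Of 30 measured genes 5 fell (16.7%, against 1.69% of all genes) and 0 rose, with a median of -0.26. The fallers were Tnfaip2, Vcam1, Cxcl2, Cxcl16 and Ccl7. The other 25 did not pass, and 5 members lay above 0, 2 of them at an unadjusted p under 0.05, against 18 members lower at that level. Of the NF-kB targets 4 were called with BeadChip as a term, and 2 were called without the 3 arrays. Cxcl2, a chemokine that draws neutrophils and whose promoter is printed above, had levels of 5.99, 5.91, 5.90, 5.98 and 6.34 at 2 mM and 6.87, 6.42, 6.61 and 7.05 at 1 mM. The highest 2 mM array lay just below the lowest 1 mM array, and the difference was -0.71 ± 0.14 (adjusted p = 0.00512; -0.76 within BeadChip 2). Cxcl2 was not called without the 3 arrays (-0.57, adjusted p = 0.0701), its other probe gave -0.53 (adjusted p = 0.0714), and the difference was -0.22 on the authors' processed values. Mean levels of Cxcl2 were 6.28, 6.74, 6.02 and 4.62 over PBS, 1, 2 and 5 mM.

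Vcam1, an adhesion molecule for leukocytes, had levels of 10.19, 10.10, 10.24, 10.10 and 10.45 at 2 mM and 10.74, 10.64, 10.66 and 10.76 at 1 mM. The groups were apart, with -0.49 ± 0.10 (adjusted p = 0.00513; -0.52 within BeadChip 2), while its other probes gave -0.24 and -0.25. Tnfaip2, which tumour necrosis factor induces, fell by 0.51, with an SE of 0.11 (adjusted p = 0.00995; -0.56 within BeadChip 2), and Ccl7, a monocyte chemokine, by 0.46, with an SE of 0.11 (adjusted p = 0.0157; -0.60 within BeadChip 2). The other probes of Tnfaip2 gave -0.15 and -0.23. Without 1 mM replicate 4 the adjusted p of Ccl7 was 0.0563, and without the 3 arrays 0.0549. Of 19 measured acute-phase genes 1 rose (Hpx, 5.26% against 4.26% of all genes) and 0 fell. Of 19 interferon-stimulated genes 2 rose (Usp18 and Ifi27, 10.5%) and 0 fell. Neither Usp18 (adjusted p = 0.0769) nor Ifi27 (adjusted p = 0.0725) was called with BeadChip as a term.

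Glycolysis had 4 falls (Slc2a1, Pfkl, Aldoa and Pgam1) and 1 rise (Pfkm) among 16 measured genes, with a median of -0.12. Among all genes 1.69% were called lower and 4.26% higher, and the 1 rise was 6.25% of the list. Of the 16, 1 was called with BeadChip as a term. Pgam1, the phosphoglycerate mutase, had levels of 10.57, 10.41, 10.21, 10.43 and 10.17 at 2 mM and 10.72, 11.06, 10.60 and 10.83 at 1 mM, and fell by 0.44, with an SE of 0.10 (adjusted p = 0.0121). The nearest arrays of the doses were almost level, and the call was lost without 1 mM replicate 2 (adjusted p = 0.0519), with BeadChip as a term (0.0822) and without the 3 arrays (0.0997), and its other probe gave -0.18. Slc2a1, the glucose carrier GLUT1, fell by 0.35, with an SE of 0.08 (adjusted p = 0.0182; -0.23 within BeadChip 2, adjusted p = 0.215), and was not called without 1 mM replicate 1 (adjusted p = 0.0649).

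Among cell cycle genes, 2 of 38 measured DNA replication genes fell (Pold1 and Mcm7; 5.26%, against 1.69% of all genes) and 0 rose, with 12 lower at an unadjusted p under 0.05 and a median of -0.17. Of 36 mitosis genes 0 were called by limma on the brightest probe, with 7 lower at an unadjusted p under 0.05 and a median of -0.14. For Smc4, of that list, the brightest probe gave -0.38 (adjusted p = 0.0791) and the others -0.55 (adjusted p = 0.016) and -0.04. Without the 3 arrays 0 of the DNA replication genes were called. The same lists had medians of -1.49 and -2.11 for 5 mM minus 2 mM, a comparison that shares the 2 mM arrays. Pold1, the catalytic subunit of DNA polymerase delta, had levels of 10.06, 9.94, 10.15, 9.90 and 9.81 at 2 mM and 10.41, 10.33, 10.47 and 10.57 at 1 mM. Every 2 mM array of Pold1 was the lower one, with -0.47 ± 0.08 (adjusted p = 0.00141; -0.41 within BeadChip 2; adjusted p = 0.0515 without the 3 arrays). Cdkn1a, the p53-induced inhibitor of cyclin-dependent kinases, did not pass on its brightest probe (0.24 ± 0.08, adjusted p = 0.11). Its other probes gave 0.30 (adjusted p = 0.0514) and 0.37 (adjusted p = 0.0361), and the second of them passed. Of 22 measured p53 targets 1 rose (4.55%, against 4.26% of all genes), Zmat3 by 0.39 ± 0.09 (adjusted p = 0.0109).

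**Figure D3:**
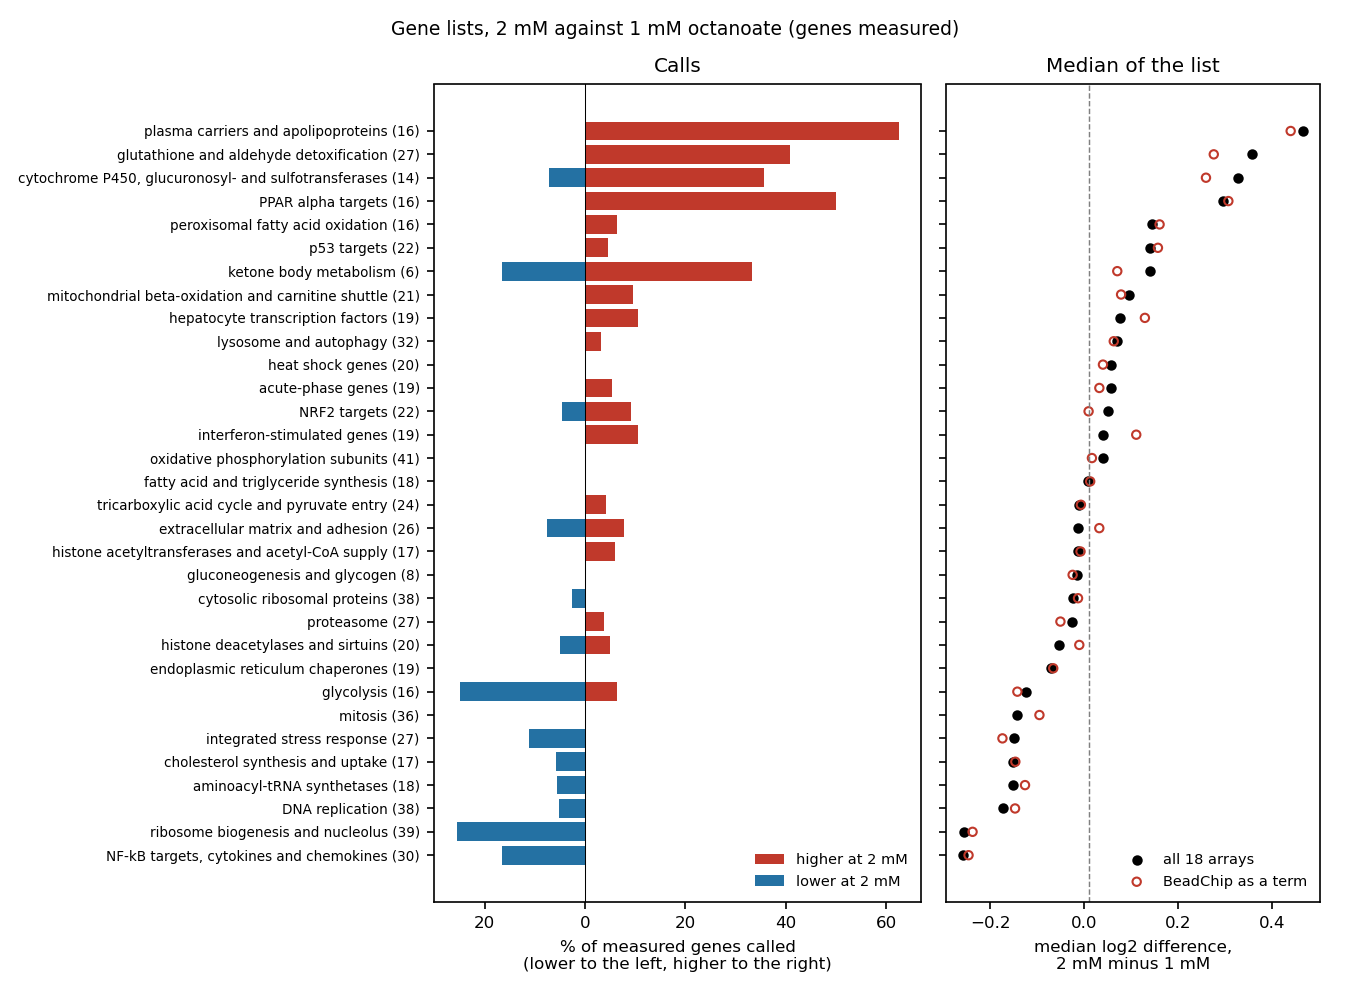
Calls and medians of 32 gene lists, with the number of measured genes in brackets. Left, percent of measured genes called lower (blue, to the left) or higher (red, to the right) at 2 mM; right, the median log2 difference over all 18 arrays (filled) and with BeadChip as a term (open), with a dashed line at the median of all genes (0.01). Plasma carriers lie at the top (10 of 16 higher, median 0.47) and NF-kB targets at the bottom (5 of 30 lower, median -0.26).

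Among the largest falls outside those lists, Zc3h18, a zinc finger protein that links the cap-binding complex to RNA decay, had levels of 9.08, 9.01, 9.15, 8.98 and 8.76 at 2 mM and 10.02, 9.95, 9.69 and 9.80 at 1 mM. The difference of Zc3h18 was -0.87 ± 0.12, or 0.547 times the 1 mM level (adjusted p = 0.000235, and -0.73 within BeadChip 2). Bhlhe40, a transcriptional repressor of the circadian system, had 10.35, 10.42, 10.62, 10.44 and 10.46 at 2 mM against 10.92, 11.03, 11.03 and 11.34 at 1 mM. The difference of Bhlhe40 was -0.62 ± 0.09 (adjusted p = 0.000375, and -0.67 within BeadChip 2). Edn1, the vasoconstrictor peptide endothelin 1, gave -0.59 ± 0.11 (adjusted p = 0.00392; -0.73 within BeadChip 2), with 7.62 to 7.94 at 2 mM and 8.22 to 8.62 at 1 mM.

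Prrc2c had -0.89 ± 0.22 (adjusted p = 0.0235), but 3 of 9 fits that left out 1 array (1 mM replicate 1, 1 mM replicate 2 or 2 mM replicate 2) did not call it, with an adjusted p of up to 0.0819, and within BeadChip 2 the adjusted p was 0.102; its 5 probes gave -0.98 to -0.16. Gtf2a1, a subunit of the general transcription factor TFIIA, had -0.67 ± 0.15 (adjusted p = 0.0109), while its other probe gave 0.09. Auh, an RNA-binding enoyl-CoA hydratase of leucine breakdown, gave -0.62 ± 0.12 (adjusted p = 0.00584), and Prelid1, a mitochondrial lipid carrier, -0.60 ± 0.14 (adjusted p = 0.0147). Padi1 gave -0.59 ± 0.16 (adjusted p = 0.0361) and lost the call in 7 of 9 such fits. With BeadChip as a term the calls of Gtf2a1 (adjusted p = 0.0749), Auh (0.0793), Prelid1 (0.121) and Padi1 (0.16) were lost, and without the 3 arrays so were those of Prrc2c (0.102), Gtf2a1 (0.149), Auh (0.147), Prelid1 (0.202) and Padi1 (0.304).

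For oxidative phosphorylation subunits (41 measured), fatty acid and triglyceride synthesis (18), endoplasmic reticulum chaperones (19), heat shock genes (20) and gluconeogenesis (8), 0 were called by limma, and the medians lay between -0.07 and 0.06. At an unadjusted p under 0.05 these lists held 4, 2, 1, 3 and 0 genes in the order given. Against 1.69% of all genes called lower, cholesterol synthesis and uptake had 1 fall (Fdps) among 17 measured genes (5.88%). The median was -0.15, and 7 were lower at an unadjusted p under 0.05. For Insig1, of that list, the brightest probe gave -0.44 (adjusted p = 0.0557) and the others -0.57 (adjusted p = 0.036) and -0.28. Fdps, which makes farnesyl diphosphate, gave -0.31 ± 0.08 (adjusted p = 0.0361) and was not called in 7 of 9 fits without 1 array; with BeadChip as a term its adjusted p was 0.201. The integrated stress response had 3 falls (Asns, Ppp1r15a and Shmt2) among 27 (11.1%), with 10 lower at an unadjusted p under 0.05 and a median of -0.15. Aminoacyl-tRNA synthetases had 1 fall (Vars) among 18 (5.56%), with 7 lower at that level and a median of -0.15. In either list 0 were called with BeadChip as a term. Hepatocyte transcription factors had 2 rises among 19 (10.5%, against 4.26% of all genes) and 0 without the 3 arrays: Nr1h4, the bile acid receptor FXR, by 0.47 ± 0.09 (adjusted p = 0.00302; 0.39 within BeadChip 2), and Hnf4a by 0.33 ± 0.08 (adjusted p = 0.0268; 0.29 within BeadChip 2, adjusted p = 0.182). Hnf4a was not called without 1 mM replicate 1, 1 mM replicate 2, 2 mM replicate 3 or 2 mM replicate 4 (adjusted p up to 0.0756).

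For the enzymes that handle acetyl groups on histones, 1 of 17 measured acetyltransferase and acetyl-CoA supply genes was called higher (5.88%, against 4.26% of all genes). It was Kat2b, at 0.32 ± 0.08 (adjusted p = 0.0347). Acly, which makes cytosolic acetyl-CoA from citrate, had levels of 11.91, 11.94, 11.72, 11.93 and 11.46 at 2 mM and 11.64, 11.78, 11.99 and 11.82 at 1 mM. These overlapped throughout, with a difference of -0.01 and a 95% interval of -0.21 to 0.18 (adjusted p = 0.958). Acss2, which makes acetyl-CoA from acetate, gave 0.36 ± 0.13 (adjusted p = 0.134). Of 20 measured deacetylases and sirtuins, Hdac8 was called higher (0.40 ± 0.11, adjusted p = 0.0345) and Hdac4 lower (-0.29 ± 0.08, adjusted p = 0.043). Each was 5.0% of that list, against 4.26% of all genes called higher and 1.69% called lower. The calls of Kat2b, Hdac8 and Hdac4 were each lost in at least 5 of 9 fits that left out 1 array, with adjusted p up to 0.102, 0.0996 and 0.121 in that order of genes, and also with BeadChip as a term and without the 3 arrays. The other probe of Kat2b gave -0.05.

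Whether a gene changed differently over 1 to 2 mM than over PBS to 1 mM, a step of equal width, was tested as the difference of the steps. The steps share the 1 mM arrays. By this test 27 of 20536 probes were called (0.131%), 5 (0.0243%) with the larger signed change over 1 to 2 mM and 22 (0.107%) with the smaller one. By gene there were 17 of 10605 (0.16%), of which 1 (0.00943%) was positive and 16 (0.151%) negative. The count was 7 probes with BeadChip as a term, 4 without 1 mM replicate 4 and 7 without 1 mM replicate 2.

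Saa3 and Lcn2 are secreted proteins of the acute-phase response. Saa3 had levels of 9.13, 9.50, 9.31, 9.37 and 9.57 at 2 mM and 9.31, 9.69, 9.63 and 9.92 at 1 mM, which overlapped. It was 1.10 higher at 1 mM than in PBS and -0.26 ± 0.13 at 2 mM relative to 1 mM, a difference of steps of -1.36 ± 0.22 (adjusted p = 0.019; adjusted p = 0.0616 with BeadChip as a term). Lcn2 had 9.67, 9.75, 9.78, 9.49 and 9.63 at 2 mM and 9.46, 9.62, 9.68 and 9.67 at 1 mM, with steps of 1.33 and then 0.06 and a difference of -1.28 ± 0.19 (adjusted p = 0.00995; 0.0616 with BeadChip as a term). At 5 mM both were far lower, with mean levels of 8.54, 9.64, 9.38 and 5.47 for Saa3 and of 8.28, 9.61, 9.66 and 5.96 for Lcn2 over PBS, 1, 2 and 5 mM.

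Ccl7 and Slc7a13, a transporter of acidic amino acids and cystine, turned within the range of doses. Ccl7 had steps of 0.69 over PBS to 1 mM and -0.46 over 1 to 2 mM (difference -1.15 ± 0.19, adjusted p = 0.019), and Slc7a13 had steps of 0.66 and -0.55 (difference -1.21 ± 0.21, adjusted p = 0.0258). Slc7a13 was dim, with 4.82, 4.85, 4.94, 4.85 and 4.58 at 2 mM, where 3 of 5 arrays detected it, and 5.34, 5.06, 5.79 and 5.26 at 1 mM. Synpo, an actin-binding protein, and Gsta4 kept on rising, by less over the second step: Synpo by 1.49 and then 0.48 (difference -1.01 ± 0.13, adjusted p = 0.00402, and 0.032 with BeadChip as a term), and Gsta4 by 1.92 and then 1.01 (difference -0.91 ± 0.16, adjusted p = 0.0258, and 0.0769 with BeadChip as a term). The other 10 negative genes were Hpx, Flrt1, Fcgrt, Exoc3l4, Bdh2, Mgst1, Anxa6, Cotl1, Ugt1a10 and Aldh1a1, with differences of steps between -0.91 and -0.68. Of the 17 genes, only Synpo kept its call in all 14 fits that each left out 1 array of PBS, 1 mM or 2 mM, with an adjusted p of up to 0.024, and only Synpo and Exoc3l4 were called with BeadChip as a term.

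Sphk1 was the single gene with a positive difference of steps. It makes sphingosine 1-phosphate. Levels were 5.97, 6.43, 6.01, 6.22 and 5.90 at 2 mM and 5.67, 5.63, 5.27 and 5.01 at 1 mM, with every 2 mM array above every 1 mM array and a rise of 0.71 ± 0.14 (adjusted p = 0.00513; 0.84 within BeadChip 2). The step over PBS to 1 mM was -0.57, and the difference of 1.28 ± 0.25 had an adjusted p of 0.0456. That call was lost in 11 of the 14 fits without 1 array, with an adjusted p of up to 0.213.

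**Figure D4:**
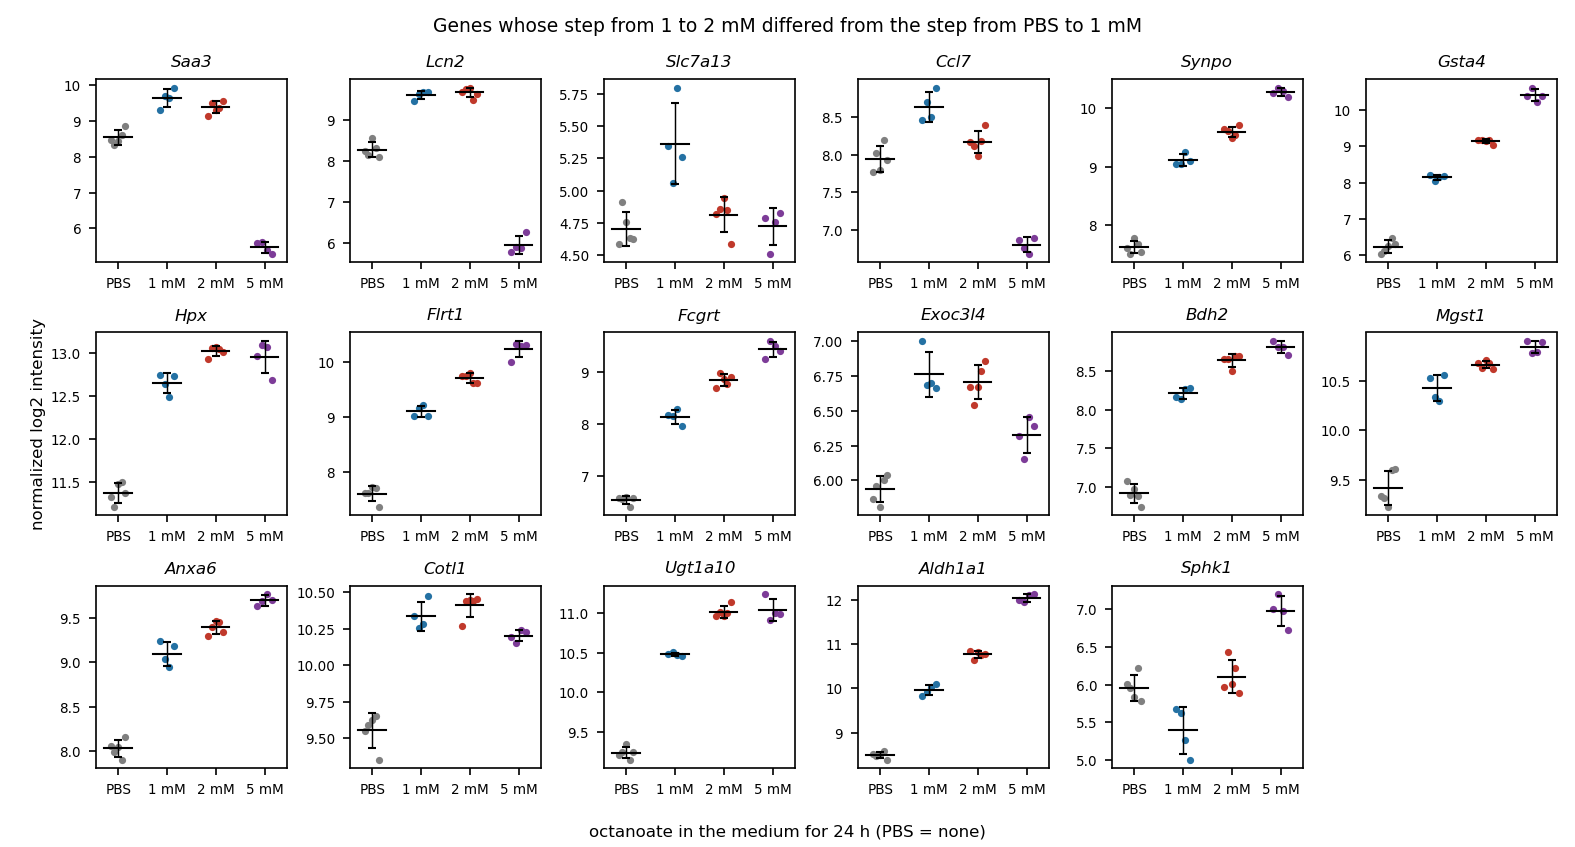
The 17 genes whose step over 1 to 2 mM differed from their step over PBS to 1 mM, as normalized log2 intensity on each array (y axis, a scale of its own in each panel) by octanoate (x axis, PBS, 1, 2 and 5 mM). Points are arrays, long bars means and short bars the SD. Saa3, Lcn2, Slc7a13 and Ccl7 are highest at 1 or 2 mM, most others rise less over the second step, and Sphk1 is lowest at 1 mM.

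BeadChip moved with dose for 3 of the 9 arrays, so each named gene was set beside its value within BeadChip 2. Of 128 named genes 72 were called, of which 41 were also called with BeadChip as a term and 31 were not, 38 were also called without the 3 arrays, and 47 kept the call in all 9 fits that left out 1 array. All 984 called probes had the same sign within BeadChip 2, which is not a separate check, since its 6 arrays are among the 9. In a fit of those 6 arrays alone 27 probes were called, all higher at 2 mM, against 2900 at an unadjusted p under 0.05. Of the 72 called named genes, 6 kept the call in that fit.

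**Figure D5:**
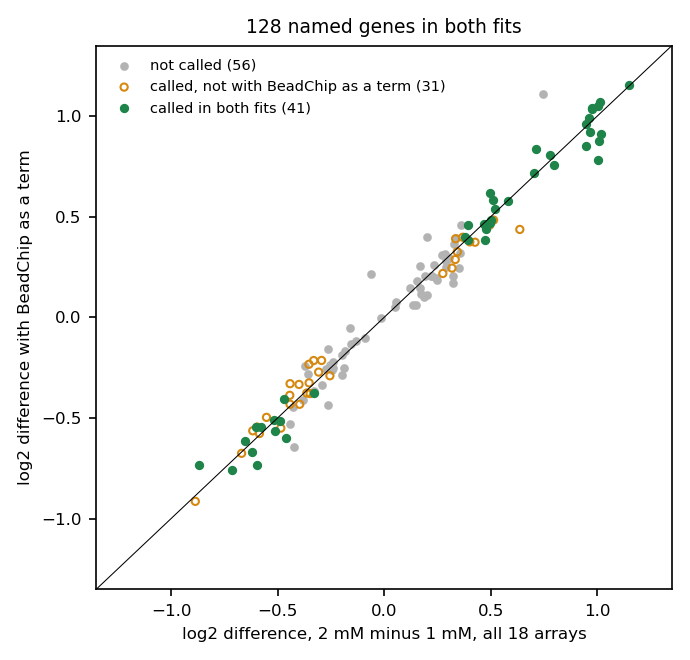
Difference between 2 mM and 1 mM for the 128 named genes over all 18 arrays (x axis, log2) and with BeadChip as a term (y axis, log2), with a line of equality. Filled green points are the 41 genes called in both fits, open orange points the 31 called only without the BeadChip term and grey points the 56 not called; the genes with differences near 1 are green.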

How the data were processed

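The authors deposited a mean bead intensity for each of 45281 probes per array, without normalization, and beside it a detection p-value, per the file headers. The authors also deposited processed log2 values; lumi is named in the submitters' processing notes, and its version, normalization and transformation are not given in the sources used here. Over bright probes these followed log2 of the same array's intensity (r of 0.977 to 0.999) in the same direction, uncentred, with array medians of 7.35 to 7.36, and served only as an alternative. The form of their low end stays unknown.

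Intensities were corrected, quantile normalized and put on a log2 scale with neqc (offset 16) of limma 3.58.1 in R 4.3.3 with statmod 1.5.0, which removes any shift common to most transcripts and understates changes of dim probes. Tested probes had a detection p under 0.05 on 4 or more of 18 arrays; they were fitted with lmFit and eBayes over 4 groups (14 residual degrees of freedom, median SE 0.114 for 2 mM minus 1 mM), two-sided, with Benjamini-Hochberg adjustment over all tested probes. The fit was tested on simulated data. Of the probes, 34885 carried 1 symbol, 18 carried several and 10378 have no name here; 34807 symbols were updated by Entrez ID through RefSeq. A gene stood by its tested probe with the highest mean, and of 4361 genes with several tested probes 0 had probes called in opposite directions; 120 called probes are unnamed.

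Named genes were the 12 largest rises and 12 largest falls among called genes whose arrays did not overlap, up to 6 each way for the difference of steps, up to 3 members of each list with the smallest adjusted p, and 9 more, of which Pdk4, Cdkn1a, Gsta4, Ttr, Acly and Acss2 were tested and the others are not reported here. The 37 lists (5 of them cell type markers) held 929 genes, 713 measured. Genes and lists were chosen with earlier results of these data known. Alternatives changed normalization, offset, filter, arrays, BeadChip, replicate block, array weights and the probe for a gene.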

Additional observations from a re-analysis of the deposited data

Results flagged for a closer look

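In 15 of 256 groups of 4 or 5 arrays, for the named genes, the highest or lowest array stood far from the rest; chance alone gives about 5% of groups. At 2 mM, Gsta4 was low on replicate 5 (9.045, the others 9.153 to 9.19), Bdh2 low on replicate 3 (8.492, the others 8.646 to 8.692) and Uqcrc2 low on replicate 1 (12.168, the others 12.368 to 12.433). Cxcl2 was high on 2 mM replicate 5 (6.339, the others 5.898 to 5.99), as was Smc4 (7.223, the others 6.751 to 6.869). Serpina3n was high on 2 mM replicate 4 (5.164, the others 4.934 to 4.999) and Atp5c1 on 2 mM replicate 2 (12.862, the others 12.746 to 12.771).

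At 1 mM, replicate 4 was high for Ttr (10.148, the others 9.967 to 9.991) and Slc25a20 (9.365, the others 8.904 to 8.953), and low for Me1 (10.893, the others 11.049 to 11.076) and Irs2 (10.076, the others 10.474 to 10.537). Replicate 2 was high for Tcof1 (9.715, the others 9.553 to 9.578) and low for Atp5c1 (12.489, the others 12.662 to 12.682). Replicate 1 was low for Creld2 (9.234, the others 9.498 to 9.519) and high for Fas (9.841, the others 9.649 to 9.673).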

How the results depend on the processing

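The 984 called probes became 425 (328 higher, 97 lower) when only the 9 arrays were fitted, 373 (286 and 87) with BeadChip as a fixed term, 27 (27 and 0) on BeadChip 2 alone, 358 (275 and 83) without the 3 arrays, and 650 to 807 when each array was left out in turn, the lowest (461 and 189) without 1 mM replicate 2. Median scaling gave 769, the authors' processed values 1405, an offset of 50 1437 and no filter 847. Probes detected on at least 4 of the 9 arrays gave 1107 (712 higher, 395 lower). Those detected on all 18 arrays gave 1167 (690 and 477). BeadChip as a random block gave 960 and array weights 864. The replicate block gave 749 (512 higher, 237 lower) and, for the difference of steps, 18; the numbers do not pair the arrays, since deviations of same-numbered arrays correlated at -0.0412 to 0.0231. The 27 probes of the difference of steps became 10 with median scaling, 74 with the authors' values, 90 with an offset of 50, 62 among probes detected on all 18 arrays, 7 with BeadChip as a term, 12 with array weights and 2 without the 3 arrays. Leaving out 1 array gave 4 (without 1 mM replicate 4) to 41 (without PBS replicate 5), with 7 without 1 mM replicate 2, 10 and 11 without PBS replicates 1 and 2, and 14 without 2 mM replicate 3.

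Among named genes and list medians, signs turned only for 4 genes that were not called and for 1 list: Glb1 to -0.082 as a mean of probes; Kdr to -0.043 with median scaling and to -0.003 and -0.062 without 1 mM replicate 2 or 2 mM replicate 2 (-0.062 to 0.119 when 1 array was left out); Tek to 0.218 with BeadChip as a term and on BeadChip 2 alone, 0.001 with the replicate block, 0.034 with array weights, 0.258 without the 3 arrays and 0.118 without 1 mM replicate 1 (-0.177 to 0.118 when 1 was left out); Acly to 0.019 with the replicate block, 0.001 with array weights and 0.046, 0.005 and 0.069 without 1 mM replicate 3, 2 mM replicate 3 or 2 mM replicate 5 (-0.068 to 0.069 when 1 was left out); and the ketone body list to -0.014 without the 3 arrays. Median scaling moved the median of all probes from -0.0033 to -0.0339. Fewer arrays enter the fits of 9, 6 or 15 arrays by construction; for other settings the cause was not tested. Of 452 risers 20 were detected on no 1 mM array. For 19 of these a bound over 1 could be given, from 1.003-fold to 1.645-fold.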

Other observations

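Genes in this section were chosen after their values were seen. Prodh2, a hydroxyproline dehydrogenase of the liver, was 7.42, 7.42, 7.28, 7.34 and 7.48 on the 2 mM arrays and 6.35, 6.59, 6.53 and 6.36 on the 1 mM arrays, a rise of 0.93 ± 0.09 (adjusted p = 1.21e-05; 0.88 within BeadChip 2). The doses did not overlap. Maob, a monoamine oxidase of the outer mitochondrial membrane, rose by 0.74 ± 0.10 (adjusted p = 0.000229; 0.60 within BeadChip 2). Rnase4, a secreted ribonuclease, rose by 0.94 ± 0.12 (adjusted p = 0.000143; 1.00 within BeadChip 2) and had mean levels of 4.71, 5.36, 6.30 and 8.89 over PBS, 1, 2 and 5 mM. Ffar4, a membrane receptor for long-chain fatty acids, rose by 0.90 ± 0.12 (adjusted p = 0.000198; 1.04 within BeadChip 2), with 7.88 to 8.23 at 2 mM and 6.91 to 7.63 at 1 mM. Sort1, a sorting receptor that affects the secretion of apolipoprotein B, rose by 0.81 ± 0.09 (adjusted p = 4.11e-05; 0.87 within BeadChip 2), and Abcb4, the canalicular exporter of phosphatidylcholine, by 0.74 ± 0.12 (adjusted p = 0.00141; 0.84 within BeadChip 2).

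Cacna1g and Cacna1h encode pore subunits of T-type calcium channels. Cacna1g was detected on all 5 arrays at 2 mM and on 0 of 4 at 1 mM, so its rise is at least 1.65-fold, the highest such bound among called genes (adjusted p = 0.000377). Cacna1h had 8.78, 8.72, 8.50, 8.69 and 8.47 at 2 mM against 7.93, 7.68, 8.01 and 7.64 at 1 mM, with no overlap and a rise of 0.81 ± 0.12 (adjusted p = 0.000375). Upb1, an enzyme of pyrimidine breakdown, was detected on 4 of 5 arrays at 2 mM and on 0 at 1 mM. At that offset it was at least 1.48-fold higher (adjusted p = 0.00168).

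Among falls, Timeless, a protein of the replication fork, gave -0.58 ± 0.10 (adjusted p = 0.0014; -0.49 within BeadChip 2), with 7.88 to 8.27 at 2 mM and 8.60 to 8.78 at 1 mM. Psmb10, an immunoproteasome subunit, gave -0.49 ± 0.10 (adjusted p = 0.00518; -0.58 within BeadChip 2), while of 27 measured proteasome genes in the list 0 fell. Loxl4, a lysyl oxidase of the matrix, gave -0.50 ± 0.07 (adjusted p = 0.000375), with 9.03 to 9.14 at 2 mM and 9.52 to 9.72 at 1 mM, which did not overlap.

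On the authors' processed values the sizes of the dim genes here were several times smaller. They were 0.13 for Cacna1g, 0.13 for Upb1, 0.16 for Abcb4, 0.21 for Rnase4 and 0.37 for Prodh2, while Sort1 gave 0.63, Maob 0.54 and Loxl4 -0.39. With an offset of 50 Cacna1g gave 0.44 and Upb1 0.43.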
